A study of Mus musculus with 2 samples.

Results

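H3K36me2 peaks in mouse colon were described at 52 genes, made up of 46 nuclear receptors and 6 of their coregulators. The members were chosen by name and role and not by their peaks, but with earlier results of these data known. A peak counted as a member's when the authors' annotation gave that gene as the nearest. A peak was listed for 40 of the 52 members, out of 18187 genes named in the lists. By role, 8 members are thyroid, retinoid and RXR receptors, 9 are bile acid, sterol and xenobiotic receptors, 5 are PPARs and HNF4 receptors, 4 are REV-ERB and ROR clock receptors, 8 are steroid and estrogen-related receptors, 12 are orphan receptors and 6 are coregulators.

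Nuclear receptors are transcription factors that bind DNA through zinc fingers and, for many of them, change activity when a small lipophilic ligand such as a hormone, a retinoid, a bile acid, an oxysterol or a fatty acid enters their ligand pocket. Many of the lipid-sensing receptors work as a pair with an RXR, and coregulators (NCOA and PGC1 as activators, NCOR as a repressor) carry their effect to chromatin. In the gut epithelium, FXR and SHP act in bile acid sensing, PXR and VDR in the response to xenobiotics and vitamin D, PPARs in fatty acid use, and the HNF4 receptors in the enterocyte programme.

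CUT&Tag marks chromatin by tethering the transposase Tn5 to an antibody, here against dimethylated lysine 36 of histone H3 (H3K36me2), the mark that NSD2 deposits. There was 1 library of NSD2fl/fl colon and 1 library of NSD2∆IE colon. NSD2fl/fl mice carry loxP-flanked Nsd2 alleles and served as controls. NSD2∆IE mice are the intestine-specific knockout, for which the study's methods name the floxed line and a Villin-Cre line. The Villin promoter is active in the intestinal epithelium, so the other cells of the colon are not targeted. Both groups were male littermates on the C57BL/6J background and both were fed HFCD, a high-fat and cholesterol diet, from 7 to 8 weeks of age, with a stated duration of 18 weeks in the study's methods but 16 weeks in the series' description. The number of mice behind each library was not given in the sources used here. With 1 library per genotype the differences below have no replicate check, and no test between genotypes was made. Since whole colon was used, fewer cells of a type and less mark per cell cannot be told apart.

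The NSD2fl/fl list held 19976 peaks and the NSD2∆IE list 23518. The deposited signal of a peak is its coverage summed over its width, and it began at 21783 in NSD2fl/fl and at 16571 in NSD2∆IE. Because these lower limits differ and no scaling between libraries was stated, signals are compared only within a list, and the libraries were compared by position and by covered length, which is the summed width of a gene's peaks. Nsd2 itself had 0 peaks in NSD2fl/fl and 1 peak of 3766 bp in NSD2∆IE, and a histone peak does not check the deletion. Peaks were listed for 2 of 9 epithelial, 2 of 6 immune and 3 of 8 stromal and muscle marker genes in NSD2fl/fl, and for 5, 3 and 4 of them in NSD2∆IE. The summed covered length of these markers was 14783, 12757 and 43244 bp in NSD2fl/fl and 32892, 20774 and 43934 bp in NSD2∆IE. Of the 9 epithelial markers, Muc2 (9018 and 15304 bp) and Cdh1 (5765 and 7323 bp) had peaks in both libraries, Krt20, Lgr5 and Epcam in NSD2∆IE alone, and Krt8, Cdx2, Car1 and Slc26a3 in neither. The part of cell composition in the values below was not tested.

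A peak was listed for 31 of the 52 members (59.6%) in NSD2fl/fl, where 32.7% of the 20665 autosomal protein-coding genes had one. In NSD2∆IE it was 33 members (63.5%), beside 34.9% of all these genes. For 24 members (46.2%) both libraries held a peak, against 21.7% of all. The list of 7 members with a peak in NSD2fl/fl alone (13.5%, against 11.1%) comprised Nr1h2, Nr1h4, Vdr, Nr5a2, Pparg, Hnf4g and Nr2f2. The 9 members with a peak in NSD2∆IE alone (17.3%, against 13.2%) were Rxrb, Nr0b2, Ppara, Rorb, Esr2, Pgr, Nr2c1, Nr2c2 and Nr6a1. No peak was annotated to the remaining 12, namely Nr1h3, Nr1h5, Nr1i3, Nr1d2, Nr3c1, Nr3c2, Esrra, Nr2e1, Nr2f1, Nr4a2, Ncor1 and Ppargc1b. The receptor genes were thus listed more often than protein-coding genes as a whole in both libraries, while the shares found in a single library were closer to the background.

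The members with a peak also had longer spans than protein-coding genes with a peak. A span depends on the transcripts that a gene's peaks name, so more peaks can lengthen it. The 40 members with a peak had a median span of 67.4 kb over the transcripts that the lists name, and the 9488 autosomal protein-coding genes with a peak had one of 21.2 kb. Per 100 kb of span, the members held 1.39 peaks in NSD2fl/fl and 1.72 in NSD2∆IE, below the 2.04 and 2.35 of all protein-coding genes with a peak. Both sets hold only genes with at least 1 peak, which by itself gives shorter genes more peaks per 100 kb. The counts also include peaks outside the span, 19 of the member peaks in each library. The part of gene length in the higher share of listed members was not tested.

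Member peaks numbered 68 in NSD2fl/fl, covering 404871 bp, and 84 in NSD2∆IE, covering 343139 bp. The NSD2∆IE library thus held more member peaks over less length. Their median width was 4894 bp in NSD2fl/fl and 3692 bp in NSD2∆IE, close to the 4643 bp and 3426 bp of all peaks in these lists. Wide peaks of at least 10 kb made up 7 of the 68 member peaks (10.3%) in NSD2fl/fl and 3 of the 84 (3.57%) in NSD2∆IE, against 3.38% and 0.693% of all peaks, and Rxra alone held 3 and 2 of them. Within 10% of the lower limit lay 20 NSD2fl/fl (29.4%) and 17 NSD2∆IE (20.2%) member peaks, against 25.4% and 26.01% of all peaks. The member share was thus above that of all peaks in NSD2fl/fl and below it in NSD2∆IE. Whether a peak so near the limit was listed turned on a small margin of signal. Among the 40 members with a peak, the covered length was less in NSD2∆IE at 15 (37.5%, where 43.8% of the protein-coding genes with a peak had less), more at 15 (37.5%, against 37.6%) and similar, with a log2 ratio between -0.5 and 0.5, at 10. A member with a peak in 1 library only counted as less or more. The balance moved with the measure, to 13 less and 19 more by number of peaks and to 19 less and 14 more with equal numbers of peaks taken from each list. Over the 24 members with peaks in both libraries the median log2 ratio of covered length, NSD2∆IE over NSD2fl/fl, was -0.38, beside -0.32 over 4476 protein-coding genes. The members therefore followed the shift between the lists as a whole, and the direction differed from gene to gene.

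**Figure D1:**
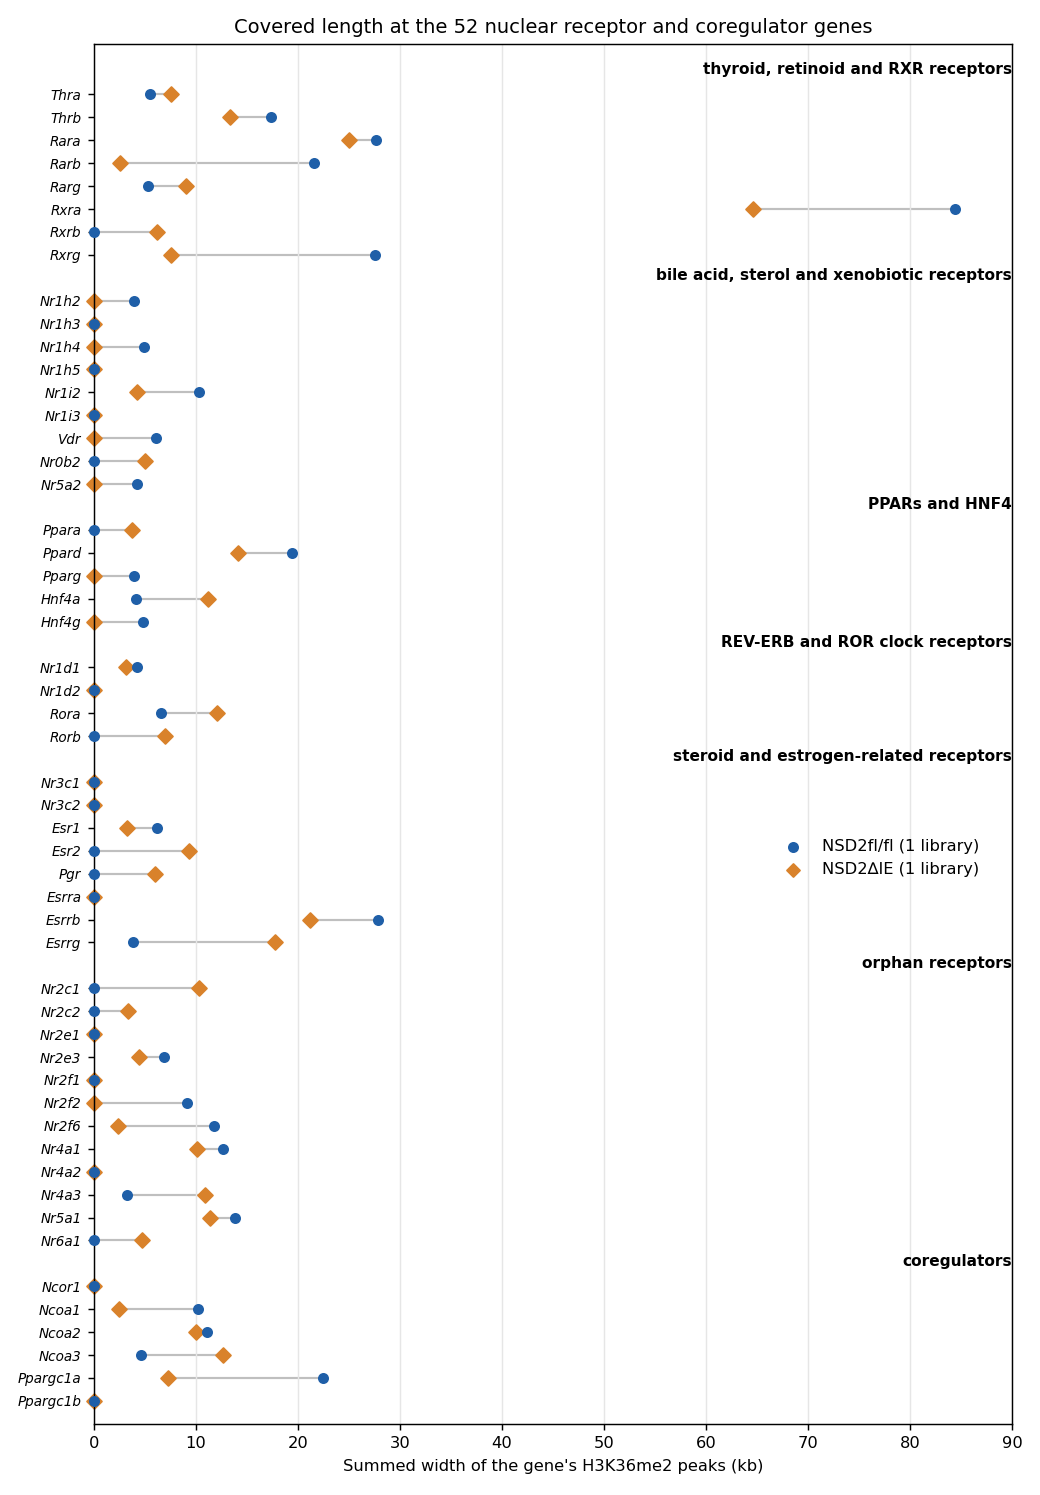
Covered length, the summed width in kb of the H3K36me2 peaks annotated to each of the 52 members, in the NSD2fl/fl library (circles) and the NSD2∆IE library (diamonds), by role; a grey line joins the values of a gene and a symbol at 0 means no peak. Rxra stands apart at 84380 and 64584 bp, 15 members have less length in NSD2∆IE, 15 have more, and 12 lie at 0 in both.

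The RXRs and the thyroid and retinoic acid receptors held more covered length than any other role group, 189146 bp in NSD2fl/fl and 135758 bp in NSD2∆IE, with 28 and 29 peaks. Of these peaks, 18 and 19 overlapped a peak of the other library by at least 1 bp, where 34.1% and 30.7% of all peaks did. Rxra alone gave 9 of the overlapping peaks in each library, and Rara 3 and 4. Peaks were listed for 7 of the 8 genes in NSD2fl/fl and for all 8 in NSD2∆IE, beside 32.7% and 34.9% of all protein-coding genes. These receptors bind thyroid hormone, all-trans retinoic acid or 9-cis retinoic acid.

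Rxra, which encodes the RXR that pairs with FXR, LXR, PPARs, PXR and VDR, had 10 peaks over 84380 bp in NSD2fl/fl and 11 peaks over 64584 bp in NSD2∆IE. By covered length it ranked 5th and 6th of the 20665 autosomal protein-coding genes. By at least 1 bp 9 of 10 and 9 of 11 peaks overlapped, some by as little as 64 to 422 bp, and 42217 bp were covered in both. The widest and strongest member peak of NSD2fl/fl lay at the end of the gene, on chromosome 2 from 27630949 to 27652683, annotated as 3′ UTR, with a width of 21735 bp and a signal of 163325 that ranked 21st in its list. In NSD2∆IE the same stretch held the widest member peak, 12214 bp from 27638217 to 27650430 with a signal of 83692, and a peak of 9613 bp from 27627581 to 27637193. At the start of transcript NM_011305.3, a peak began 360 bp downstream of the start in NSD2fl/fl and 319 bp downstream in NSD2∆IE. It was 13159 bp wide with a signal of 128935 in NSD2fl/fl, and 6592 bp wide with a signal of 46776 in NSD2∆IE. The strongest member peak of NSD2∆IE, 12079 bp in intron 1 from 27604640 to 27616718 with a signal of 86976, contained the whole of an NSD2fl/fl peak of 8254 bp. Between its outermost peaks, 139.7 kb apart, 60.4% of the bases lay under a peak in NSD2fl/fl and 46.2% in NSD2∆IE. Another NSD2fl/fl peak of intron 1, 11830 bp from 27581654 to 27593483 with a signal of 80883, met an NSD2∆IE peak by 294 bp only. Rxra thus held peaks through and beyond the gene in both libraries. They were wider in NSD2fl/fl at the start and the end of the gene, where 2 NSD2∆IE peaks met each NSD2fl/fl peak. These covered 72.2% of the NSD2fl/fl peak at the start and 84.9% of that at the end. Within intron 1 the wider library differed from block to block. Distal intergenic peaks assigned to it, up to 43.5 kb from a start, numbered 3 in NSD2fl/fl and 5 in NSD2∆IE.

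Rara, the retinoic acid receptor alpha gene, had 3 peaks over 27599 bp in NSD2fl/fl and 5 over 25017 bp in NSD2∆IE, and 58.4% of the bases under either set lay under both. Each NSD2fl/fl peak met a start of Rara. The first, from 98816882 to 98830624 on chromosome 11, was 13743 bp wide with a signal of 88386. In NSD2∆IE this stretch held separate peaks of 3963 bp and 4330 bp, with signals of 31715 and 28030. The internal peaks were alike in width, 5182 bp against 4425 bp and 8674 bp against 8013 bp. An added NSD2∆IE peak of 4286 bp lay in the 3′ UTR, 0.546 kb from the nearest NSD2fl/fl peak.

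Of the 45 members with a window in a RefSeq promoter table of GRCm38.p6, 17 had 22 windows whose start could be matched to a start in the lists by the same length from start to gene end. The 250 bases upstream lay wholly under a peak in 6 of these windows in NSD2fl/fl and in 4 in NSD2∆IE. Of the matched windows, only that of Rara NM_009024.2 lay wholly under a peak in both libraries. That of Rxra NM_001290481.1 was covered in NSD2fl/fl alone, 1907 bp from the nearest NSD2∆IE peak. The peak over it was 2591 bp wide and near the lower limit, with a signal of 22140, 1.02 times the lowest in its list. Both windows are shown, as a start under a peak in both libraries and a start under a peak in NSD2fl/fl alone. The latter was also the case for Rxrg NM_001159731.1. In list coordinates they lie at chr11:98828272-98828521 and chr2:27599054-27599303, both on the plus strand, and the bases below are those of RefSeq GRCm38.p6, 5′ to 3′ and ending at the base before the start. Capitals mark the nuclear receptor half-site AGGTCA or its reverse complement TGACCT.
Rara NM_009024.2: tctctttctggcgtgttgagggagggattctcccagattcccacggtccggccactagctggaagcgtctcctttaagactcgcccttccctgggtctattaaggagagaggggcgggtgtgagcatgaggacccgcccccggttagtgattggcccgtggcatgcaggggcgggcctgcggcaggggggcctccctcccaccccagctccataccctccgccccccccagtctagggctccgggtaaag
Rxra NM_001290481.1: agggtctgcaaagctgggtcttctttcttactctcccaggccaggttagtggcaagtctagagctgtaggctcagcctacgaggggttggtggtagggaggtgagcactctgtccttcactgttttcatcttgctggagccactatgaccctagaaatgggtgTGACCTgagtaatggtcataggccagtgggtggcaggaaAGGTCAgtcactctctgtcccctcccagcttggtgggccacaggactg

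The Rxra window held the half-site at 87 bases (reverse strand) and at 48 bases (forward strand) before the start, counted from the first base of the match, and had 1 CpG. The Rara window held neither AGGTCA nor the variant AGTTCA on either strand and had 13 CpGs. On both strands, AGGTCA occurred in 14.0% of all 32851 windows of this length and in 10 of the 67 member windows (14.9%), and AGTTCA in 11.8% and in 8 (11.9%). The members thus held these letters about as often as promoters at large, and a match is not evidence of binding.

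Of the other retinoid and thyroid genes, Rxrg and Rarb had less covered length in NSD2∆IE and Rarg and Rxrb more. Rxrg, an RXR of muscle and brain, had 5 peaks over 27524 bp in NSD2fl/fl and 2 over 7572 bp in NSD2∆IE, a log2 ratio of -1.86. Its NSD2fl/fl promoter peak of 10040 bp, from 167437798 to 167447837 on chromosome 1 with a signal of 54606, met an NSD2∆IE peak of 3875 bp by 773 bp only. Rarb had 4 peaks over 21591 bp against 1 peak over 2528 bp, the most negative log2 ratio of the 24 members, -3.09. The NSD2∆IE peak of Rarb, at -29.9 kb from a start on chromosome 14, overlapped an NSD2fl/fl peak by 2115 bp, while a promoter peak of 7021 bp with a signal of 32192 was found in NSD2fl/fl only. Adding 1 NSD2fl/fl and 2 NSD2∆IE peaks that lie in exons or introns of Rarb but are annotated to other genes changed its log2 ratio to -1.55.

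Rarg, the retinoic acid receptor of epithelia and skin, had 1 peak of 5266 bp in NSD2fl/fl and 3 peaks over 9040 bp in NSD2∆IE, a log2 ratio of 0.78. The peak they shared, by 3147 bp, lay at -2.25 kb and -1.86 kb from the start of NM_001042727.2 on chromosome 15. A further NSD2∆IE peak, 2282 bp wide with a signal of 20391, began 0.416 kb downstream of the other Rarg start. Rxrb had only an NSD2∆IE peak, 6129 bp from 34251322 to 34257450 on chromosome 17 with a signal of 38159, which covered the whole span of the gene, 6.05 kb. An NSD2fl/fl peak annotated to the neighbouring gene H2-Ke6 ended 10 bp before it and covered 239 of the 250 bases upstream of the Rxrb start. The start itself lay under the NSD2∆IE peak alone, while a peak lay close to it in both libraries.

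The thyroid hormone receptor genes had similar covered lengths. Thra had 1 peak of 5458 bp with a signal of 31574 in NSD2fl/fl, and 2 peaks of 3584 and 3934 bp with signals of 24537 and 21524 in NSD2∆IE, on chromosome 11. At exon 4 these peaks shared 2249 bp, 14.1 and 12.4 kb from the start. Thrb had 4 peaks in each library, 17328 bp against 13370 bp, across 256 kb of chromosome 14. A peak at a Thrb promoter occurred in both, 4511 bp with a signal of 25462 in NSD2fl/fl and 2942 bp with a signal of 17293 in NSD2∆IE, and they shared 2301 bp. None of the other Thrb peaks overlapped between the libraries.

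**Figure D2:**
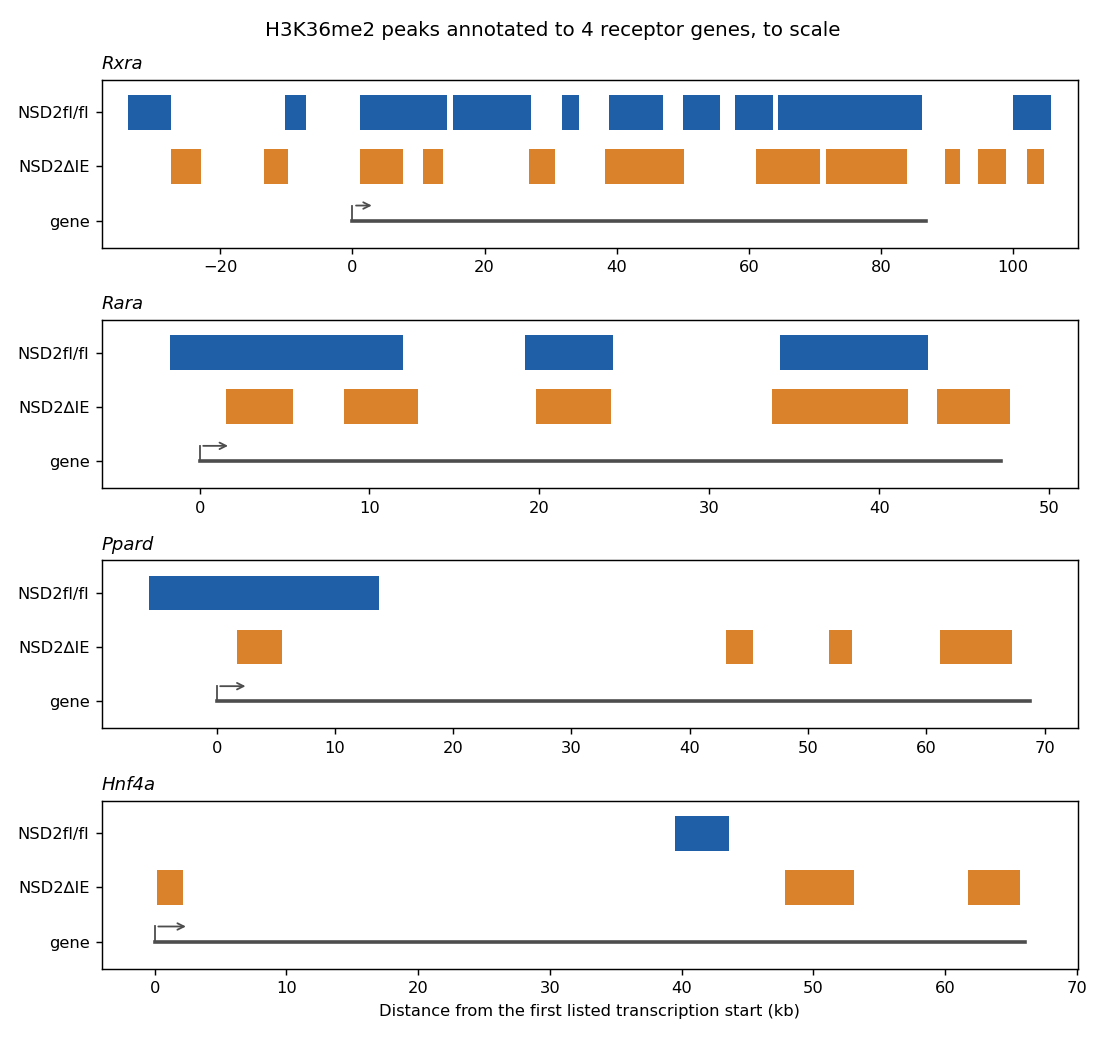
Peaks annotated to Rxra, Rara, Ppard and Hnf4a in the NSD2fl/fl library (upper row of each map) and the NSD2∆IE library (lower row), drawn to scale against the distance in kb from the first transcription start that the lists name; the dark line is the gene and the arrow its direction. Rxra and Rara have several peaks in each library that overlap in part, Ppard has 1 peak of 19.4 kb in NSD2fl/fl and 4 smaller peaks in NSD2∆IE, and the Hnf4a peaks do not overlap.

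Bile acid, sterol and xenobiotic receptors had peaks for 5 of 9 genes in NSD2fl/fl, over 29289 bp, and for 2 of 9 in NSD2∆IE, over 9242 bp, beside 32.7% and 34.9% of all protein-coding genes. Only Nr1i2 was listed in both libraries. Of the 6 members with a peak, 5 had less covered length in NSD2∆IE (Nr1h2, Nr1h4, Nr1i2, Vdr and Nr5a2), as did 43.8% of all protein-coding genes with a peak, and Nr0b2 had more. The counts are small, since the group held 6 and 2 peaks in all.

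Nr1i2 encodes PXR, which senses xenobiotics and secondary bile acids in liver and gut. Its peak at exon 3, on chromosome 16 from 38072315 to 38077709 in NSD2fl/fl (5395 bp, signal 32745) and from 38071824 to 38076063 in NSD2∆IE (4240 bp, signal 24230), shared 3749 bp. The log2 ratio of Nr1i2 was -1.28, as a further NSD2fl/fl peak of 4887 bp lay at -10.8 kb from a start, inside the neighbouring gene Maats1. Nr1h4 encodes FXR, the bile acid receptor. It had a single NSD2fl/fl peak of 4901 bp, at -10.1 kb from a start, with a signal of 24739, or 1.14 times the lowest in its list. Vdr, the vitamin D receptor gene, had a peak of 6045 bp in intron 1 in NSD2fl/fl with a signal of 28850. In NSD2∆IE a peak of 3009 bp lay in exon 8 of Vdr but was annotated to Gm33690, so both libraries held a peak within Vdr, at places 34.7 kb apart. Nr5a2, which encodes LRH-1, had an NSD2fl/fl peak of 4187 bp in intron 5.

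Nr1h2, which encodes the oxysterol receptor LXR beta, had in NSD2fl/fl a peak of 3874 bp near its start on chromosome 7 (44199168 to 44203041), with a signal of 32314. An NSD2∆IE peak annotated to the neighbour Pold1 overlapped 3474 bp of it. The stretch was thus called in both libraries and named for Nr1h2 in the NSD2fl/fl list alone. The genes of LXR alpha (Nr1h3), FXR beta (Nr1h5) and CAR (Nr1i3) had no peak in either list.

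Nr0b2, the gene of SHP, the receptor without a DNA-binding domain that represses bile acid synthesis downstream of FXR, was the reverse case. It had no NSD2fl/fl peak, and in NSD2∆IE a peak of 5002 bp that contained its start (chromosome 4, 133277373 to 133282374), with a signal of 26835 that ranked 4791 of 23518. The nearest NSD2fl/fl peak, annotated to Nudc, was 6.64 kb away. The 250 bases before the Nr0b2 start, at chr4:133280437-133280686 on the plus strand in list coordinates, lay wholly under the NSD2∆IE peak and are shown as the window marked in that library alone, with bases of RefSeq GRCm38.p6, 5′ to 3′. Capitals mark TCAAGG, the half-site bound by receptors of the NR5A class such as LRH-1 and whose last letters AGG can also be the first of AGGTCA.
Nr0b2 NM_011850.3: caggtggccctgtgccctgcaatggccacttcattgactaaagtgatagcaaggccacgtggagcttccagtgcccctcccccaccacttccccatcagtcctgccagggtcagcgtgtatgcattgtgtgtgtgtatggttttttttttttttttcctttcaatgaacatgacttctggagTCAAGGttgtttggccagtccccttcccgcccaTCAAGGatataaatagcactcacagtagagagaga

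TCAAGG began 68 and 35 bases before the Nr0b2 start, in both cases on the forward strand, and the window held 3 CpGs. On either strand the letters occurred in 12.5% of all windows and in 6 of the 67 member windows (8.96%). These matches describe the sequence under the peak and say nothing of binding in these samples.

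PPARs and HNF4 receptors had similar total covered length, 32175 bp in NSD2fl/fl and 28910 bp in NSD2∆IE. Of the 4 and 8 peaks, 1 in each library overlapped a peak of the other, where 34.1% and 30.7% of all peaks did. Ppard, the gene of the fatty acid receptor PPAR delta, had the second widest member peak of NSD2fl/fl, 19406 bp from 28445973 to 28465378 on chromosome 17, with a signal of 117008 that ranked 66th. Within it, NSD2∆IE had a promoter peak of 3813 bp with a signal of 35902, and 3 further peaks of 2280, 1958 and 6045 bp lay at a later start, in a 5′ UTR and in the 3′ UTR, where NSD2fl/fl had none annotated to Ppard. An NSD2fl/fl peak of 6290 bp in intron 2 of Ppard was annotated to 1810013A23Rik, and with it the log2 ratio of Ppard was -0.87 in place of -0.46.

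Hnf4a, whose factor sustains the enterocyte programme, has an upstream start (the transcript NM_001312907.1) and a start 40.3 kb further downstream (NM_008261.3). The NSD2fl/fl peak, 4122 bp from 163388244 to 163392365 on chromosome 2 with a signal of 27196, contained the downstream start. The NSD2∆IE peaks comprised 2019 bp from 163348917 to 163350935, beginning 140 bp after the upstream start, with a signal of 19379, a peak of 5221 bp at exon 4 with a signal of 33850, and a peak of 3888 bp in the 3′ UTR with a signal of 23612. Own peaks shared no base between the libraries, and the closest were 4.28 kb apart. The upstream NSD2∆IE peak was weak, at 1.17 times the lowest signal of its list, and an NSD2fl/fl peak annotated to Gm25881 lay 0.88 kb from it. The gene had more covered length in NSD2∆IE, 11128 bp against 4122 bp, a log2 ratio of 1.43.

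The windows before both Hnf4a starts and before the Ppard start are shown because the peaks nearest to them differed between the libraries. The upstream Hnf4a window, chr2:163348527-163348776, lay outside peaks of either library, 141 bp from the NSD2∆IE peak. The downstream window, chr2:163388825-163389074, lay wholly under the NSD2fl/fl peak and 5196 bp from the nearest NSD2∆IE peak. The Ppard window, chr17:28451478-28451727, lay wholly under the NSD2fl/fl peak and 1678 bp from the nearest NSD2∆IE peak. All are on the plus strand and numbered as in the lists, with bases of RefSeq GRCm38.p6, 5′ to 3′, and none held any of the half-sites named above on either strand, so no capitals appear.
Hnf4a NM_001312907.1: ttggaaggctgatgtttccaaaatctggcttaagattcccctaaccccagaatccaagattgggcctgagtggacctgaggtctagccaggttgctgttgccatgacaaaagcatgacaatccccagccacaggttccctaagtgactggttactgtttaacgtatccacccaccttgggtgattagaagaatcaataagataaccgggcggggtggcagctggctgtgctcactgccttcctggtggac
Hnf4a NM_008261.3: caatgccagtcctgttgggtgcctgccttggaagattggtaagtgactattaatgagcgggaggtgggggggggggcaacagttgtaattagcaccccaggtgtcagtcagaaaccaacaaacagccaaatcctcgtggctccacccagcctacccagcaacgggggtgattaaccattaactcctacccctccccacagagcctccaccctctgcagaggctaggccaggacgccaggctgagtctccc
Ppard NM_011145.3: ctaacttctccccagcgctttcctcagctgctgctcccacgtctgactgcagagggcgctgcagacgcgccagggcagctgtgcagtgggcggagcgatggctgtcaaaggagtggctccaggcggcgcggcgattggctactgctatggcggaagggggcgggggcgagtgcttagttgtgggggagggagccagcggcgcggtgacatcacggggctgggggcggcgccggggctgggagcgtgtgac

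The Hnf4a windows held 3 and 4 CpGs and the Ppard window 22, against a median of 6 over all windows. Of the remaining genes of this group, Ppara, the PPAR of fatty acid oxidation, had an NSD2∆IE promoter peak of 3686 bp on chromosome 15 with a signal of 31145, and the nearest NSD2fl/fl peak, annotated to Gm46529, was 1.97 kb away. Hnf4g, which acts beside Hnf4a in the gut, had an NSD2fl/fl promoter peak of 4759 bp on chromosome 3. Its signal of 24290 was 1.12 times the lowest in its list. Pparg, the adipogenic PPAR that is also found in colon epithelium, had an NSD2fl/fl peak of 3888 bp in intron 2. Each of these 3 genes was thus listed in a single library.

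The REV-ERB and ROR receptors, which repress and activate clock genes, had 2 peaks over 10786 bp in NSD2fl/fl and 7 over 22112 bp in NSD2∆IE. None of them was shared, where 34.1% and 30.7% of all peaks were. Nr1d1, the gene of REV-ERB alpha, had a peak of 4232 bp with a signal of 30813 in NSD2fl/fl, annotated as 3′ UTR, and a promoter peak of 3098 bp with a signal of 24982 in NSD2∆IE, 3.20 kb apart. The NSD2fl/fl peak lies in the span of Thra, the convergent neighbour on chromosome 11. Rora had 1 peak of 6554 bp, at -37.4 kb from a start, in NSD2fl/fl and 4 intronic peaks over 12033 bp in NSD2∆IE, a log2 ratio of 0.88, and spans 735 kb. A further 2 and 5 peaks in its intron 1 were annotated to other genes, and with them the ratio was 0.99. Rorb had 2 peaks over 6981 bp in NSD2∆IE, of which 1 of 3966 bp with a signal of 19207 covered its promoter on chromosome 19, and none in NSD2fl/fl. The REV-ERB beta gene, Nr1d2, had no peak. Covered length in this group was thus more in NSD2∆IE at Rora and Rorb and similar at Nr1d1.

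Steroid and estrogen-related receptor genes had 7 peaks over 37800 bp in NSD2fl/fl and 16 over 57445 bp in NSD2∆IE. Of these, 2 in each overlapped, all of them at Esrrb, where 34.1% and 30.7% of all peaks did. Esrrb, an orphan receptor of pluripotent cells, had 5 peaks in each library, over 27881 bp and 21149 bp. Its widest NSD2fl/fl peak, 7563 bp with a signal of 40593, covered a start on chromosome 12, and NSD2∆IE had no peak within 6.06 kb of it. Further promoter peaks of Esrrb, 6645 bp in NSD2fl/fl and 4892 bp in NSD2∆IE, with signals of 36450 and 21020, shared 766 bp. Esrrg, a regulator of oxidative metabolism, had 1 peak of 3777 bp in NSD2fl/fl and 6 over 17767 bp in NSD2∆IE, the most positive log2 ratio of the 24 members, 2.23. However, 6 NSD2fl/fl and 5 NSD2∆IE peaks inside Esrrg, which spans 564 kb, were annotated to other genes. The widest, 18732 bp at exon 5 from 187788067 to 187806798 on chromosome 1, ranked 104th in NSD2fl/fl with a signal of 102044 and contained an NSD2∆IE peak of 4308 bp. With these peaks the log2 ratio of Esrrg was -0.16, so that the difference at this gene rests on which gene a peak is assigned to.

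Esr1, the estrogen receptor alpha gene, had a promoter peak of 6142 bp with a signal of 36326 in NSD2fl/fl and a peak of 3221 bp in an exon with a signal of 17908 in NSD2∆IE, 87.0 kb apart on chromosome 10. Its log2 ratio was -0.93, and 0.19 once an NSD2∆IE peak of 3772 bp in intron 8 that was annotated to Syne1 was added. Pgr, the progesterone receptor gene, had a promoter peak of 5968 bp with a signal of 24927 on chromosome 9 in NSD2∆IE only. Esr2, the estrogen receptor beta gene, had 3 NSD2∆IE peaks over 9340 bp, of which 2 lie within the neighbouring gene Syne2. Esrra and the glucocorticoid receptor gene Nr3c1 had no peak in either list. The mineralocorticoid receptor gene Nr3c2, which acts in sodium uptake in the colon, had none annotated to it, but 2 peaks in each library lay in its exons or introns on chromosome 8 and were annotated to small genes, Gm23260 and Gm24838. Those of different libraries did not overlap.

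Orphan receptors had almost equal covered length, 57447 bp in NSD2fl/fl and 57382 bp in NSD2∆IE. Of their 11 and 15 peaks, 5 in each library overlapped, where 34.1% and 30.7% of all peaks did. Nr4a1, an immediate early gene, had 2 promoter peaks over 12617 bp in NSD2fl/fl and 3 over 10050 bp in NSD2∆IE on chromosome 15. The peaks at 1 start, 4682 and 2637 bp wide with signals of 31515 and 20790, shared 2096 bp. Those downstream of another start, 7935 and 3730 bp wide with signals of 53992 and 22098, shared 3730 bp. The NSD2∆IE peak at the most upstream start, 3683 bp, lay 1.06 kb from the nearest NSD2fl/fl peak. Nr4a3, of the same class, had 1 peak of 3278 bp against 3 over 10902 bp, a log2 ratio of 1.73, and its NSD2∆IE promoter peak of 3686 bp on chromosome 4 with a signal of 18327 lay 18.7 kb from the nearest NSD2fl/fl peak. Nr4a2 had no peak.

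Nr2f6, a COUP-TF relative that restrains T cell cytokines, had 1 promoter peak in each library on chromosome 8. It was 11766 bp wide with a signal of 73856 in NSD2fl/fl and 2367 bp wide with a signal of 17488 in NSD2∆IE, and the narrower lay wholly inside the wider. Its log2 ratio was -2.31. Nr2f2, a COUP-TF of stromal and venous cells, had 2 peaks over 9097 bp in NSD2fl/fl and none in NSD2∆IE within 228.9 kb. Its promoter peak on chromosome 7 was 2973 bp wide with a signal of 23153, 1.06 times the lowest in its list. The other Nr2f2 peak was at 1.19 times the lowest. Nr5a1, the gene of SF-1, had 3 peaks in each library, 13799 bp and 11323 bp, of which those in the body of the gene shared 2195 bp. Its NSD2∆IE promoter peak of 4227 bp on chromosome 2 had a signal of 25296. Of its other NSD2∆IE peaks, 1 lies in exon 6 of the neighbouring member Nr6a1, which had a promoter peak of 4702 bp with a signal of 20015 in NSD2∆IE only. Nr2e3, the photoreceptor gene, had 2 peaks over 6890 bp in NSD2fl/fl and 1 of 4359 bp in NSD2∆IE, all of them inside Thsd4 on chromosome 9, and the closest were 0.206 kb apart. The TR2 and TR4 genes, Nr2c1 and Nr2c2, had 2 and 1 peaks in NSD2∆IE, all of them outside the span of these genes. Those in an exon or intron lay in Fgd6 and Fgd5. The other, labelled 3′ UTR, ended 4.6 kb upstream of the Nr2c1 start. Nr2e1 and Nr2f1 had no peak.

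The coregulators had 10 peaks over 48228 bp in NSD2fl/fl and 7 over 32290 bp in NSD2∆IE, and none overlapped a peak of the other library, where 34.1% and 30.7% of all peaks did. Ppargc1a, the gene of PGC1 alpha, a coactivator of mitochondrial genes, had 5 peaks over 22432 bp in NSD2fl/fl and 2 over 7252 bp in NSD2∆IE, a log2 ratio of -1.63. The nearest Ppargc1a peaks of the libraries were 227.8 kb apart, and the NSD2∆IE promoter peak, 2899 bp with a signal of 19771, lay at the upstream end of the gene on chromosome 5. Ncoa1 had 2 peaks over 10175 bp against 1 of 2403 bp, a log2 ratio of -2.08. Its promoter peaks, 3624 bp with a signal of 22012 in NSD2fl/fl and 2403 bp with a signal of 17951 in NSD2∆IE, were at different starts on chromosome 12. These signals were 1.01 and 1.08 times the lowest of their lists. Ncoa2 had 2 peaks in each library, 11062 bp against 10013 bp. Those of NSD2fl/fl were promoter peaks on chromosome 1 (6178 and 4884 bp, signals 29469 and 27899), and those of NSD2∆IE were intronic (6130 and 3883 bp, signals 37988 and 22669). An NSD2fl/fl peak of 6170 bp at exon 15 of Ncoa2 was annotated to Prdm14, and with it the log2 ratio was -0.78 in place of -0.14. Ncoa3 had 1 intronic peak of 4559 bp with a signal of 22291 against 2 peaks over 12622 bp, a log2 ratio of 1.47. Its NSD2∆IE peak of 10639 bp from 165887083 to 165897721 on chromosome 2, with a signal of 74303, was the widest member peak of that library outside Rxra.

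Ncor1, the corepressor gene, had no peak. Ppargc1b had none annotated to it, while 2 NSD2fl/fl and 5 NSD2∆IE peaks lay in its exons or introns under the names of other genes, Gm46627 and the miRNA gene Mir378a. Of these, 2 pairs overlapped between the libraries, by 2686 and 1176 bp, and the log2 ratio of their covered length was 0.10.

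At the level of peaks, 28 of the 68 NSD2fl/fl member peaks overlapped an NSD2∆IE peak (41.2%, 95% Wilson interval 30.3% to 53.0%, for counting error only), where 34.1% of all NSD2fl/fl peaks did. Of the 84 NSD2∆IE member peaks 28 overlapped (33.3%, interval 24.2% to 43.9%), beside 30.7% of all. Without Rxra the shares were 19 of 58 (32.8%) and 19 of 73 (26.03%). The intervals of the member peaks thus included the shares of all peaks, and Rxra gave 9 of the 28 overlaps in each library.

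Taking as promoter whatever the authors' annotation labels so, up to 3 kb from a start, 25 of 68 NSD2fl/fl member peaks (36.8%, interval 26.3% to 48.6%) and 29 of 84 NSD2∆IE member peaks (34.5%, interval 25.2% to 45.2%) lay at promoters. All peaks had 32.1% and 27.9%. A promoter peak was listed for 17 members in NSD2fl/fl and 20 in NSD2∆IE, and for 10 in both, namely Esrrb, Hnf4a, Ncoa1, Nr2f6, Nr4a1, Ppard, Rara, Rarg, Rxra and Thrb. No share of all protein-coding genes with a promoter peak is given here, so these counts of genes describe the members only. Introns held 20 (29.4%) and 28 (33.3%) of the member peaks, with intervals of 19.9% to 41.1% and 24.2% to 43.9%, against 21.0% and 23.6% of all peaks. Distal intergenic peaks were 8 (11.8%) and 7 (8.33%), against 18.01% and 20.1%, and 3 and 5 of them belonged to Rxra. In NSD2∆IE the intervals of the intronic and of the distal intergenic share did not include the share of all peaks, the intronic one narrowly. In NSD2fl/fl both intervals included it, with the values on the same side of it as in NSD2∆IE. The intervals treat peaks as independent, though the 84 NSD2∆IE member peaks lay at 33 genes. All peaks also include those of genes that are not protein-coding, so the sets are not of like genes. No difference in these shares was tested.

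**Figure D3:**
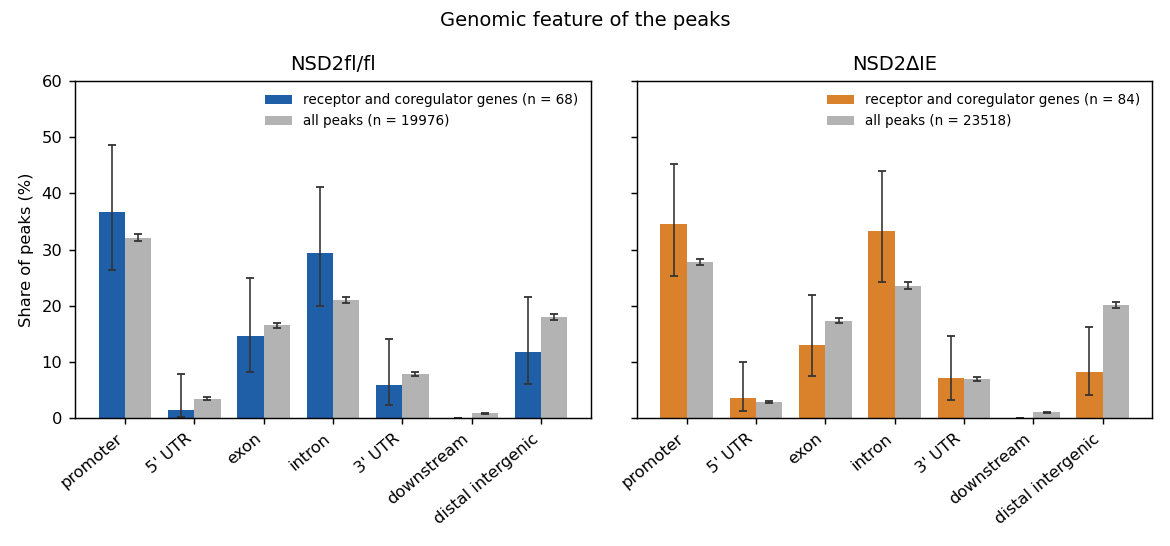
Share in percent of the peaks of each library that lie in each genomic feature, for the peaks at receptor and coregulator genes (coloured bars) and for all peaks (grey bars), with 95% Wilson intervals (none drawn for the empty downstream class). Promoters hold 36.8% and 34.5% of the member peaks, introns 29.4% and 33.3%, and distal intergenic regions 11.8% and 8.33%.

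Of the member peaks labelled exon or intron, 3 of 30 in NSD2fl/fl and 6 of 39 in NSD2∆IE lay in a gene of another name. Over all peaks this share was 47.6% and 47.5%. It covers every gene named in the lists, while all members are protein-coding, so the shares are not of like genes. By the span of the transcripts that the lists name, 19 of 68 NSD2fl/fl and 19 of 84 NSD2∆IE member peaks lay outside the member. In the other direction, 16 NSD2fl/fl peaks at 8 members and 23 NSD2∆IE peaks at 9 members lay in their exons or introns but were annotated to another gene, among them the wide Esrrg peak.

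**Figure D4:**
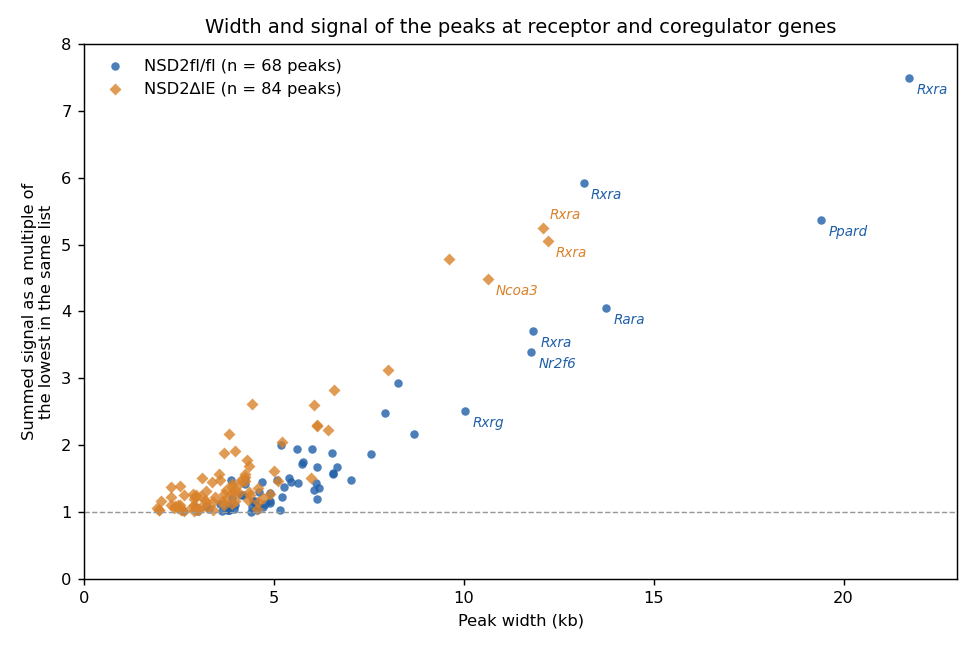
Width in kb against summed signal, as a multiple of the lowest signal in the same list (dashed line at 1), for the 68 NSD2fl/fl and 84 NSD2∆IE member peaks; names mark peaks of at least 10 kb. Most peaks lie below 2 times the lowest signal, and Rxra, Ppard, Rara, Nr2f6, Rxrg and Ncoa3 hold the wide ones.

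Known targets of these receptors and further coregulators, in lists chosen with earlier results of these data known, were set beside them. Of 10 PPAR targets, 2 had a peak in NSD2fl/fl and 8 in NSD2∆IE, with 15380 bp and 30457 bp, where 32.7% and 34.9% of all protein-coding genes had a peak. Cpt1a, which imports fatty acids into mitochondria, had 11982 bp in NSD2fl/fl and 3439 bp in NSD2∆IE, Fabp1 had 3398 bp and 4239 bp, and Cd36 had 4731 bp in NSD2∆IE only. Of 14 bile acid and sterol targets of FXR and LXR, 8 and 7 had a peak, over 77946 bp and 51515 bp. Among them Srebf1, the lipogenic factor, had 8953 bp and 19780 bp, and the sterol transporter genes Abcg1 and Abcg8 had 17829 and 16949 bp in NSD2fl/fl against 7531 and 6437 bp in NSD2∆IE. Of 8 targets of PXR, CAR and VDR, only Cyp27b1 had a peak, in both libraries. Of 6 glucocorticoid receptor targets, 3 and 2 had a peak, and of 8 clock partners 4 and 4. Of 17 other coregulator genes, 7 had a peak in each library and 3 in both. The numbers of genes with a peak in the other target lists were within 1 of each other between the libraries, and no difference between lists was tested.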

How the data were processed

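The authors aligned CUT&Tag reads with Bowtie2, called peaks with SEACR separately for each of the 2 libraries and annotated them with ChIPseeker. deepTools was also named, and versions, thresholds and controls were not given in the sources used here. The deposited signal of each peak is a whole number, its coverage summed over the region, with no stated normalization. No read or count totals were given, so sequencing depth is unknown and no limit of detection could be set. The processing notes name hg38, a human build, although the genes, transcripts and chromosomes of the lists are mouse. The lists do not use GRCm38.p6 either, as of 17569 genes on the same chromosome in the RefSeq table only 313 shared a start or end with it and 2397 overlapped. Positions are therefore printed as the lists number them and the build is not settled.

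Gene names and biotypes came from RefSeq (17571 of 18187 listed genes and all 52 members matched by symbol). Peaks were joined by nearest gene, covered length was summed, and peaks overlapping by at least 1 bp between libraries counted as shared. A log2 ratio beyond 0.5 in size counted as less or more. Shares have 95% Wilson intervals for counting error only. The genotypes were set side by side without a statistical test, as each had a single library.

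The members, role groups and lists were chosen with earlier results of these data known. Full values were given for members with a peak in both libraries or a promoter peak in either and for the widest and strongest member peaks. Of the other lists at most the 3 longest genes were named, except that all epithelial markers were, chosen after their values were seen. Python 3.11.15, pandas 2.3.3, numpy 2.4.6, scipy 1.17.1 and matplotlib 3.10.9 were used. On simulated lists the code placed 1000 of 1000 genes in their class of covered length and found 500 of 500 shared peaks. Alternatives changed the gene assignment, promoter width, overlap rule, peak threshold and list length.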

Additional observations from a re-analysis of the deposited data

How the results depend on the processing

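Of 90 values recomputed under alternative settings, 73 moved little, for counts by a factor of at most 1.5, and 17 moved. Some could not move, since equal numbers of peaks left the NSD2fl/fl counts as they were and the log2 limit does not enter the median. Most are counts or shares without a direction to reverse. The balance of members with less and more in NSD2∆IE did turn with the setting, although its counts are among the 73 that moved little. It was 13 less and 19 more by number of peaks, and 19 less and 14 more with equal numbers of peaks. No paired analysis was possible because there was 1 library per genotype. Assigning peaks by overlap with the gene's span lowered the members found in NSD2fl/fl alone from 7 to 4, and to 3 with the span extended by 3 kb. By construction, fewer members counted when only promoter peaks were used, 17 in NSD2fl/fl, 20 in NSD2∆IE, 10 in both and 25 in neither. Keeping the strongest 50% of each list likewise left 14 members in both and 19 in neither, with 37 and 47 member peaks, and raised the promoter share in NSD2fl/fl to 51.4%, for which the cause was not tested. A promoter of 1 kb gave 19.05% in NSD2∆IE, and a reciprocal overlap of 50% gave shared shares of 14.7% and 10.7%, both by stricter definition. The median log2 ratio of -0.38 became -0.060 when centred on all genes, 0 by number of peaks and -0.55 with equal numbers of peaks per list, where the weakest NSD2∆IE peaks were dropped. Adding peaks inside a member but annotated to another gene and leaving out Rxra were chosen after seeing the data. With 1 library per genotype and unknown depth, no difference here has an error between animals, and a missing peak means only that none passed the limit of its list.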
